A study of Mus musculus with 6 samples.

Results

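Aminoacyl-tRNA synthetases are the enzymes that join each amino acid to its tRNA, and 37 of their genes were followed here through peak lists of open chromatin from mouse pancreatic islets. The genes were chosen by name from 21887 protein-coding genes of the GRCm38 RefSeq table. A symbol had to be an amino acid letter followed by ars, with at most a short ending as in Farsa or Iars2, and Eprs was added. Of the 37, 21 encode cytosolic and 16 mitochondrial enzymes. Lars2 was left out by the rule. A gene was called marked in a library when a peak touched the 1000 bp on either side of either end of its RefSeq record, here called a gene end.

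Chromatin was probed by ATAC-seq, in which the transposase Tn5 cuts and tags accessible DNA, in hand-picked islets of 16-week-old mice. There were 6 libraries in 3 groups of 2. Islets labelled βRicKO+Ad-Acsl4 carried a beta cell knockout of Rictor, which encodes a core protein of mTORC2 kinase, and received an adenovirus carrying Acsl4, a long-chain acyl-CoA synthetase. Those labelled βRicKO+Ad-GFP had the same knockout and a GFP adenovirus, and those labelled Con+Ad-GFP were wild-type islets with the GFP adenovirus. All islets were thus infected, for 48 h in culture, and about 50 were used per sample. The sources used here do not give the promoter behind the knockout, nor say if both libraries of a group are from different animals, so the spread between libraries may be technical. Islets also hold cells other than beta cells, in which the labels give no deletion, and in such bulk material a peak cannot be assigned to a cell type.

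Each synthetase recognises 1 amino acid and its tRNAs, apart from the product of Eprs, which holds both the glutamyl and the prolyl enzyme. The cytosol and the mitochondrion mostly use separate enzymes encoded by separate nuclear genes. Gars and Kars are exceptions that serve both compartments and were counted as cytosolic, and mitochondria make their glutaminyl-tRNA by an indirect route that begins with Ears2. Several cytosolic enzymes (Eprs, Iars, Lars, Mars1, Qars, Rars, Kars and Dars) assemble with the scaffold proteins Aimp1, Aimp2 and Eef1e1 into the multisynthetase complex. Under amino acid shortage or stress of the endoplasmic reticulum, the transcription factor ATF4 raises many cytosolic synthetase genes through a composite DNA element called CARE, which it binds together with C/EBP proteins. Beta cells are known for a heavy load of secretory protein synthesis.

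The lists differed widely in length, and this bears on every count that follows. They held 525 and 5874 peaks in the libraries labelled βRicKO+Ad-Acsl4 1 and 2, 2206 and 4257 in those labelled βRicKO+Ad-GFP 1 and 2, and 4442 and 1628 in those labelled Con+Ad-GFP 1 and 2. Read depth is unknown. Peaks at a gene end made up 35.8% and 5.29% of the βRicKO+Ad-Acsl4 lists, 67.2% and 75.5% of the βRicKO+Ad-GFP lists, and 70.9% and 21.7% of the Con+Ad-GFP lists. Rictor carried no peak in any library, so the lists do not check the knockout. Peaks inside Acsl4 numbered 6 in the library labelled βRicKO+Ad-GFP 1 and 7 in that labelled Con+Ad-GFP 1 and 0 in the others, both labelled Ad-Acsl4 included, and all libraries are named here by label only. Of 15 beta cell markers, Mafa and Nkx6-1 were marked, each in the libraries labelled βRicKO+Ad-GFP 2 and Con+Ad-GFP 1. That is 13.3% in each of these libraries, below the 17.3% and 16.7% of all protein-coding genes marked there. The insulin genes Ins1 and Ins2 were not marked in any library. No marker of other endocrine cells (8 genes), of acinar and ductal cells (8) or of endothelial, stromal and immune cells (9) was marked.

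The RefSeq promoters (GRCm38.p6) of the cytosolic and of the mitochondrial synthetase genes marked in the most libraries are shown first, because peaks described below lie on them. They are Tars and Tarsl2, which encode threonyl-tRNA synthetases, Yars for tyrosine, and the mitochondrial genes Sars2 for serine and Ears2 for glutamate. Ears2 was marked in 2 libraries, as were Nars2, Yars2 and Lars, which are not shown. Each sequence reads in the direction of transcription, from 250 bases before the start site to 50 bases after it. Capitals mark the bases that lie inside the peaks of 3 libraries (2 for Ears2). Tars lies at chr15:11399609-11399908 on the minus strand, Yars at chr4:129189653-129189952 on the plus strand and Tarsl2 at chr7:65644648-65644947 on the plus strand. Sars2 lies at chr7:28741718-28742017 on the plus strand and Ears2 at chr7:122067037-122067336 on the minus strand.

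Tars: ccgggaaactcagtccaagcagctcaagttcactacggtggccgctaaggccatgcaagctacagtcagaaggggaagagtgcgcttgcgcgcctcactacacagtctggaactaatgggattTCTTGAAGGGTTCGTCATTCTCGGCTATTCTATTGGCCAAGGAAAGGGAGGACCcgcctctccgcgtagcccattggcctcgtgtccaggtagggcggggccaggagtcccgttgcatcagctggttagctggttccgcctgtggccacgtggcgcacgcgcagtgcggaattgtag
Yars: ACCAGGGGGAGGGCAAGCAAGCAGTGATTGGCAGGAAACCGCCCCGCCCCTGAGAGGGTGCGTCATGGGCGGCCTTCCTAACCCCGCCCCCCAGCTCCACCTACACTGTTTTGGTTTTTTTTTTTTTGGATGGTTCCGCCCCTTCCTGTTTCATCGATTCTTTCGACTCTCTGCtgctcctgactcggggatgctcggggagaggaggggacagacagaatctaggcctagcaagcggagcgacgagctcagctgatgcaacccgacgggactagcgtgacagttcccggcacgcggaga
Tarsl2: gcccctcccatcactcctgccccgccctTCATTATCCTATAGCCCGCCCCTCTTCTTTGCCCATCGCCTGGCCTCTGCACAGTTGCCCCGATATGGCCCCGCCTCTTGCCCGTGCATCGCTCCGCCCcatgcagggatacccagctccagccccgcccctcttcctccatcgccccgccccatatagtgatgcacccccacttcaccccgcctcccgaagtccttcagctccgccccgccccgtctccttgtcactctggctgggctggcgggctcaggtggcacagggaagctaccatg
Sars2: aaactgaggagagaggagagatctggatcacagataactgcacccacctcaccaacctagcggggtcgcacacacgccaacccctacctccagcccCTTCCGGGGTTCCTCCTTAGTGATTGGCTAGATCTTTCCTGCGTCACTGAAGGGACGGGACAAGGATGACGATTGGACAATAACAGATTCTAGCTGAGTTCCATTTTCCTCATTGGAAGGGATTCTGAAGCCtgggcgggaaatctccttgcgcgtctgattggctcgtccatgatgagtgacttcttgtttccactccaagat
Ears2: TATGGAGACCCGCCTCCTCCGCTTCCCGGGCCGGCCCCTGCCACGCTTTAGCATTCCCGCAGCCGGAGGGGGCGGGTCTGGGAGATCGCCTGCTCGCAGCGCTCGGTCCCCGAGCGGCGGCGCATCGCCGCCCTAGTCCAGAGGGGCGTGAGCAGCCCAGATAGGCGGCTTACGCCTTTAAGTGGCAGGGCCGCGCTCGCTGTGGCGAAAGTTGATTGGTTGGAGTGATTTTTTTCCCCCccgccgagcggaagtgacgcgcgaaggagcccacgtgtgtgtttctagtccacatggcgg

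The capitals span 54 bases in Tars, 174 in Yars, 99 in Tarsl2, 132 in Sars2 and 240 in Ears2. Counted from the start site as 0, the peaks that close these stretches end at -74 in Tars, -77 in Yars, -124 in Tarsl2, -23 in Sars2 and -11 in Ears2. In these 5 promoters the capitals thus lie before the start site. In Tars, Yars, Tarsl2 and Sars2 the peaks of some pairs of libraries also overlapped across it. The Tars peaks of the libraries labelled βRicKO+Ad-GFP 2 and Con+Ad-GFP 1, for example, both ran to 44 bp beyond it.

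In the libraries labelled βRicKO+Ad-Acsl4 1 and 2, 0 of 37 synthetase genes were marked, beside 1.02% and 1.58% of all protein-coding genes. A count of 0 of 37 allows a share of up to 9.49% (upper bound of the exact Clopper-Pearson 95% interval), so these lists are too short at gene ends to show a difference. In the libraries labelled βRicKO+Ad-GFP 1 and 2, 9 (24.3%, 95% interval 11.8 to 41.2) and 13 (35.1%, 20.2 to 52.5) were marked, beside 8.20% and 17.3% of all genes. In those labelled Con+Ad-GFP 1 and 2 the counts were 10 (27.0%, 13.8 to 44.1) and 1 (2.70%, 0.0684 to 14.2), beside 16.7% and 2.00% of all genes. The intervals cover counting error only. At the share of all genes, 37 genes would give 3.03 and 6.4 marked in the libraries labelled βRicKO+Ad-GFP 1 and 2, and 6.17 and 0.74 in those labelled Con+Ad-GFP 1 and 2. Synthetase genes thus stood above the share of all genes in the libraries labelled βRicKO+Ad-GFP 1 and 2 and Con+Ad-GFP 1, while 1 gene beside 0.74 is near the background. The interval of the library labelled Con+Ad-GFP 1 includes the share of all genes. This is a description, and no test was made. Over all libraries 20 of the 37 (54.1%) were marked at least once, beside 24.5% of all genes, and 4 (10.8%) in 3 or more, beside 6.52%.

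**Figure D1:**
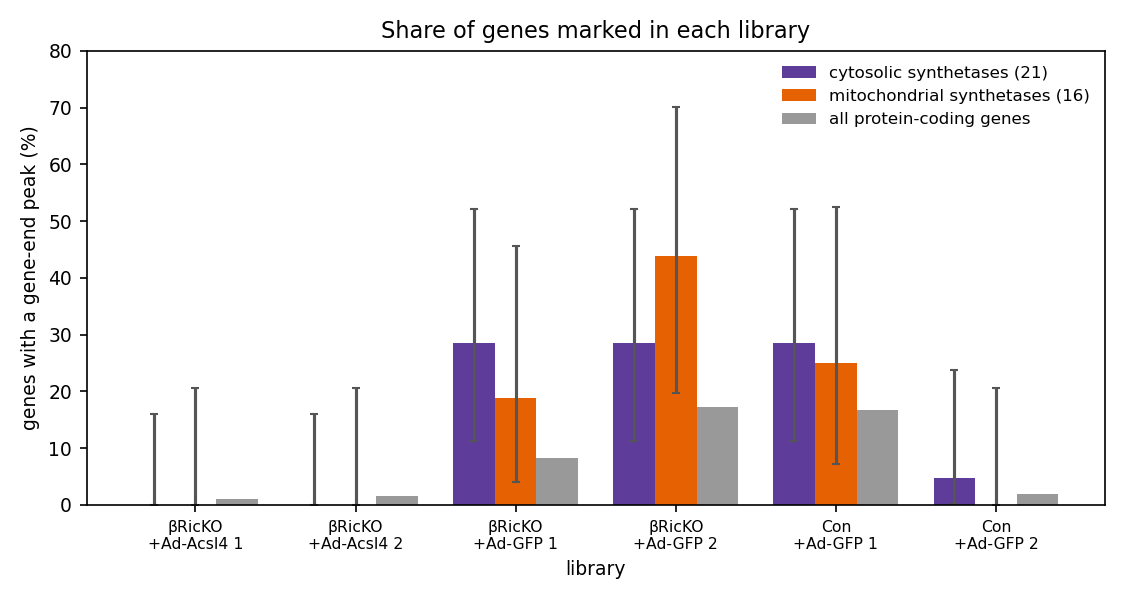
Share of genes with a gene-end peak (y axis, percent) in each of the 6 libraries (x axis) for 21 cytosolic synthetases, 16 mitochondrial synthetases and all protein-coding genes; error bars are exact 95% intervals. The bars of both synthetase classes lie above all genes in the libraries labelled βRicKO+Ad-GFP 1 and 2 and Con+Ad-GFP 1. The interval excludes the share of all genes only for cytosolic genes in βRicKO+Ad-GFP 1 and mitochondrial genes in βRicKO+Ad-GFP 2. No synthetase is marked in the libraries labelled βRicKO+Ad-Acsl4.

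Tars, the threonyl-tRNA synthetase of the cytosol, was marked in 4 libraries, more than any other synthetase gene. Its peaks had scores of 8.34 and 10.9 in the libraries labelled βRicKO+Ad-GFP 1 and 2, and 9.73 and 1.73 in those labelled Con+Ad-GFP 1 and 2, where the score is the deposited value, read here as a −log10 q-value. A score percentile, the rank of a peak within its own list, places these at 86.4 and 80.1 in βRicKO+Ad-GFP and 75.3 and 8.32 in Con+Ad-GFP. The first 3 peaks lie on the printed promoter, whereas that of the library labelled Con+Ad-GFP 2 begins 266 bp downstream of the start site, at chr15:11399167-11399392, and overlaps none of them. Tars was therefore marked by different DNA in the libraries labelled Con+Ad-GFP 1 and 2.

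Yars, the tyrosyl-tRNA synthetase, had peaks of percentile 82.1 and 70 in the libraries labelled βRicKO+Ad-GFP 1 and 2, and of 65 in that labelled Con+Ad-GFP 1. These 3 peaks are 284, 335 and 317 bp wide and share 175 bases. The peak of the library labelled Con+Ad-GFP 1 ended 77 bp before the start site, while those of the libraries labelled βRicKO+Ad-GFP 1 and 2 ran across it to 12 and 83 bp beyond. Tarsl2, a threonyl-tRNA synthetase closely related to Tars, was marked in the same 3 libraries and had the highest percentile of any synthetase peak. Its peaks lay from -297 to -124 and from -256 to 110 bp in βRicKO+Ad-GFP 1 and 2, and from -222 to 388 bp in Con+Ad-GFP 1. Its percentiles were 43.4 and 94.2 in the libraries labelled βRicKO+Ad-GFP 1 and 2 and 59.7 in that labelled Con+Ad-GFP 1, where its peak of 611 bp was also the widest of all 33 synthetase gene-end peaks. Lars, the leucyl-tRNA synthetase that also takes part in leucine sensing by mTORC1, was marked in the libraries labelled βRicKO+Ad-GFP 2 (percentile 74.2, 159 bp wide) and Con+Ad-GFP 1 (40.7, 144 bp). Both peaks cover its gene end and share 140 bases.

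A further 7 cytosolic genes were marked in 1 library each. In the library labelled βRicKO+Ad-GFP 1 these were Cars for cysteine (percentile 49.1), Mars1 for methionine (25.5) and Farsb, the beta subunit of the phenylalanyl enzyme (2.58). Dars for aspartate (35.6) and Qars for glutamine (19.5) were marked in the library labelled βRicKO+Ad-GFP 2, and Iars for isoleucine (29.7) and Sars for serine (14.3) in that labelled Con+Ad-GFP 1. All of these stood below the middle of their lists. Qars only just met the window: its peak lies 988 bp beyond the end of the gene where transcription stops, near an end of the neighbouring gene Qrich1. The other 10 cytosolic genes, Aars, Eprs, Farsa, Gars, Hars, Kars, Nars, Rars, Vars and Wars, had no gene-end peak in any library.

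Among the mitochondrial enzymes, Sars2 was marked in the most libraries. Its peaks had scores of 2.05 and 11.1 in the libraries labelled βRicKO+Ad-GFP 1 and 2 and 6.26 in that labelled Con+Ad-GFP 1, with percentiles of 7.12, 81 and 53.7. The peaks were 134, 255 and 288 bp wide and overlap in 132 bases, although their ranks lie far apart. Ears2 was marked in the libraries labelled βRicKO+Ad-GFP 2 and Con+Ad-GFP 1, with percentiles of 47 and 54.4 and widths of 403 and 245 bp. So was Nars2, the asparaginyl enzyme, with percentiles of 44.2 and 55.4 and widths of 124 and 142 bp. Yars2, the mitochondrial tyrosyl enzyme, was marked in both libraries labelled βRicKO+Ad-GFP, with scores of 6.65 and 3.14 and percentiles of 77.2 and 15.2, and had no gene-end peak in either library labelled Con+Ad-GFP or βRicKO+Ad-Acsl4. Its peaks ran from -178 to 59 and from -145 to 34 bp, across the start site in both. A further 5 genes were marked once. Fars2 for phenylalanine (percentile 55), Pars2 for proline (37.8) and Rars2 for arginine (1.21) were marked in the library labelled βRicKO+Ad-GFP 2, Vars2 for valine (2.58) in that labelled βRicKO+Ad-GFP 1 and Mars2 for methionine (60.3) in that labelled Con+Ad-GFP 1. Aars2, Cars2, Hars2, Iars2, Tars2 and Wars2 were among the 7 with no gene-end peak.

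**Figure D2:**
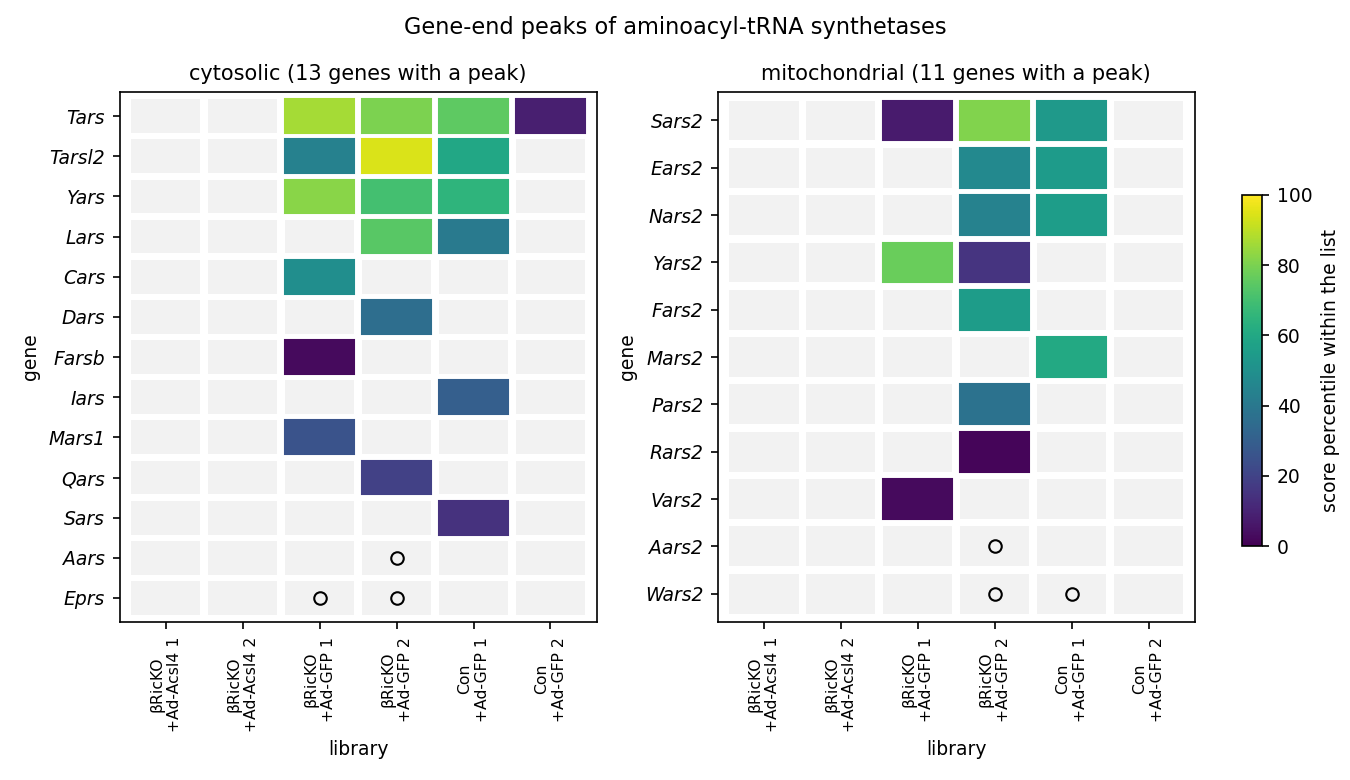
Gene-end peaks of the 24 synthetase genes with a peak at a gene end or a RefSeq start site (rows) in each library (columns), coloured by score percentile within the list; grey cells have no gene-end peak, and open circles mark peaks within 1000 bp of a RefSeq start site that is away from the gene record's ends. Tars fills 4 libraries, Tarsl2, Yars and Sars2 fill 3, and both columns labelled βRicKO+Ad-Acsl4 are empty.

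For some of the genes without a gene-end peak, the RefSeq start site lies away from the end of the gene record, and peaks were found there. Eprs, which encodes both the glutamyl and the prolyl enzyme, starts 1627 bp inside its record. It carried a peak across that start site in both libraries labelled βRicKO+Ad-GFP, at chr1:185362778-185363085 (percentile 83) and chr1:185362941-185363049 (39.2), and none in either library labelled Con+Ad-GFP or βRicKO+Ad-Acsl4. Aars, the alanyl enzyme, starts 6064 bp inside its record and had a peak across the start site in the library labelled βRicKO+Ad-GFP 2 (percentile 45.7). Wars2 had a peak just downstream of its start site in the libraries labelled βRicKO+Ad-GFP 2 (25.9) and Con+Ad-GFP 1 (63.2), and the peak in Con+Ad-GFP 1 lay 1015 bp from the gene end, just outside the window. Aars2 had a weak one in the library labelled βRicKO+Ad-GFP 2 (2.2). With the 1000 bp around RefSeq start sites counted too, 24 of the 37 genes (64.9%) had a peak, beside 26.4% of all genes, and 13 had none. This count was added after the data were seen. The other peaks inside synthetase genes lay in Wars and Fars2 in the library labelled Con+Ad-GFP 1, with percentiles of 13.9 and 4.14, and Wars2 in that labelled βRicKO+Ad-Acsl4 2, with 80.

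The comparison of βRicKO+Ad-GFP with Con+Ad-GFP asks what loss of Rictor in beta cells does to accessible chromatin. Yars2 was the only synthetase gene marked in both libraries labelled βRicKO+Ad-GFP and in neither labelled Con+Ad-GFP, which is 1 of 37 (2.70%), beside 1.04% of all genes. In the opposite direction the count was 0 of 37, beside 0.0914% of all genes. Counted at RefSeq start sites, a measure added after the data were seen, Eprs joined Yars2. The share of all genes with this pattern at start sites was not computed. With 2 libraries against 2 no gene can reach a two-sided exact permutation p below 0.333, so no gene was tested. The 1 gene depends on which libraries are compared: the counts in the knockout direction were 6 (16.2%) without the library labelled βRicKO+Ad-GFP 1, 5 (13.5%) without that labelled βRicKO+Ad-GFP 2 and 4 (10.8%) without that labelled Con+Ad-GFP 1. The shares of all genes for the same library sets were 5.54%, 1.94% and 5.6%. Without the library labelled Con+Ad-GFP 2 the control direction held 3 genes (8.11%), beside 4.40% of all genes.

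Libraries of the same and of different groups shared synthetase genes. The libraries labelled βRicKO+Ad-GFP 1 and 2 shared 5 genes, which is 55.6% of the 9 and 38.5% of the 13. Those labelled βRicKO+Ad-GFP 1 and Con+Ad-GFP 1 shared 4, which is 44.4% of the 9 and 40.0% of the 10. Those labelled βRicKO+Ad-GFP 2 and Con+Ad-GFP 1 shared 7, which is 53.8% of the 13 and 70.0% of the 10. Over all marked genes the shares were 80.6% and 38.2% for the libraries labelled βRicKO+Ad-GFP 1 and 2. They were 75.7% and 37.2% for those labelled βRicKO+Ad-GFP 1 and Con+Ad-GFP 1, and 67.1% and 69.6% for those labelled βRicKO+Ad-GFP 2 and Con+Ad-GFP 1, so nothing particular to synthetases is read from these overlaps.

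The comparison of βRicKO+Ad-Acsl4 with βRicKO+Ad-GFP asks what added Acsl4 does in the knockout. No synthetase gene was marked in both libraries labelled βRicKO+Ad-Acsl4 and neither labelled βRicKO+Ad-GFP, beside 0.00914% of all genes. The reverse held for 5 of 37 (13.5%), Tars, Yars, Tarsl2, Sars2 and Yars2, beside 5.79% of all genes. All 5 synthetase genes marked in both libraries labelled βRicKO+Ad-GFP were in this set, as were 87.6% of all genes so marked. Without the library labelled βRicKO+Ad-GFP 1 the count was 13 (35.1%), beside 15.9% of all genes, and without that labelled βRicKO+Ad-GFP 2 it was 9 (24.3%), beside 7.31%. The comparison of βRicKO+Ad-Acsl4 with Con+Ad-GFP, which uses the same βRicKO+Ad-Acsl4 libraries, likewise gave 0 genes, beside 0.00457%, and in reverse 1 (2.70%), Tars, beside 1.32% of all genes. Without the library labelled Con+Ad-GFP 2 this count was 10 (27.0%), beside 15.3% of all genes. The Acsl4 virus and the low number of gene-end peaks in both libraries labelled βRicKO+Ad-Acsl4 cannot be told apart here.

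Cytosolic and mitochondrial genes were marked to similar extents, with no common direction. In the libraries labelled βRicKO+Ad-GFP 1 and 2, 6 of 21 cytosolic genes (28.6%) were marked in each, beside 3 (18.8%) and 7 (43.8%) of 16 mitochondrial genes. In those labelled Con+Ad-GFP 1 and 2 the counts were 6 (28.6%) and 1 (4.76%) cytosolic genes and 4 (25.0%) and 0 mitochondrial genes. The cytosolic minus mitochondrial difference was 9.82 and -15.2 percentage points in βRicKO+Ad-GFP and 3.57 and 4.76 in Con+Ad-GFP, and 0 in both libraries labelled βRicKO+Ad-Acsl4. Its mean was 0.496 ± 8.49 percentage points (SD over 6 libraries), well within the spread between libraries. This mean and SD include both libraries labelled βRicKO+Ad-Acsl4, where the difference is 0 because no synthetase gene was marked. Those libraries do not inform the comparison of the classes. Over all libraries 11 of 21 cytosolic (52.4%) and 9 of 16 mitochondrial genes (56.2%) were marked at least once.

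Sorted by amino acid, 14 amino acids have a cytosolic and a mitochondrial gene of their own in this set. Glutamate and proline share the cytosolic gene Eprs and were not counted among the 14. Eprs had no gene-end peak, whereas their mitochondrial genes Ears2 and Pars2 were marked. Genes of both compartments were marked for 4 of them, phenylalanine, methionine, serine and tyrosine. For 4 others, cysteine, isoleucine and threonine among them, only a cytosolic gene was marked at a gene end, and for asparagine, arginine and valine (3) only the mitochondrial one. No gene was marked at a gene end for alanine, histidine or tryptophan (3), although Aars, Aars2 and Wars2 had the start-site peaks given above. In no library were both the cytosolic and the mitochondrial gene marked for methionine or phenylalanine, whereas Yars and Yars2 were both marked in the libraries labelled βRicKO+Ad-GFP 1 and 2, and Sars and Sars2 in that labelled Con+Ad-GFP 1.

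Most peaks lay at the start of the gene, as over all genes. Strand was known for 17 of the 20 marked genes, and 28 of their 29 peaks lay at the end where transcription starts, the exception being Qars. These 28 of 29 are 96.6%, beside 96.3% of all marked genes with known strand, counted per library. Not all fell on the promoter stretch itself: the peaks of Rars2, from 65 to 193 bp, and of Tars in the library labelled Con+Ad-GFP 2 lay downstream of it, and that of Sars held 9 of its bases. Of all 33 synthetase peaks, 21 covered the gene end itself, and widths ran from 103 to 611 bp. A peak across the gene end was found for 5 of 9 synthetase genes (55.6%) and 9 of 13 (69.2%) in the libraries labelled βRicKO+Ad-GFP 1 and 2, beside 52.1% and 57.2% of all marked genes. In those labelled Con+Ad-GFP 1 and 2 the counts were 7 of 10 (70%) and 0 of 1, beside 55% and 30.8%. The Nars2 peaks lay 600 bp inside the gene record in the library labelled βRicKO+Ad-GFP 2 and 530 bp inside in that labelled Con+Ad-GFP 1. They fell from -88 to 35 and from -158 to -17 bp of its RefSeq start site.

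**Figure D3:**
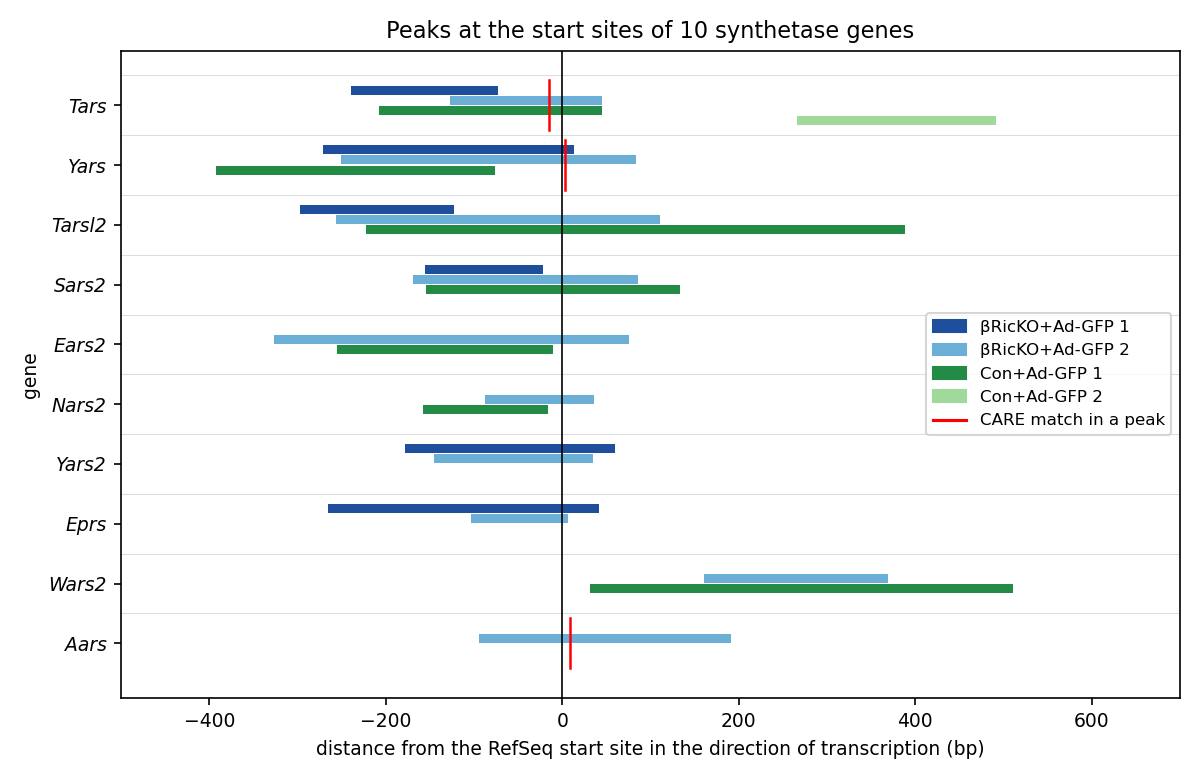
Peaks of 10 synthetase genes (rows) by distance in bp from the RefSeq start site (x axis, direction of transcription to the right), with 1 bar per library that had a peak within 1000 bp; red lines mark the first base of a CARE match that a peak covers. Most bars end near or cross the start site, and the peak of the library labelled Con+Ad-GFP 2 at Tars lies apart, from 266 bp downstream.

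The scores of synthetase peaks lay around the middle of their lists. Their median percentile was 43.4 and 47 in the libraries labelled βRicKO+Ad-GFP 1 and 2, beside 54.4 and 52.9 for all marked genes, and 54.9 in that labelled Con+Ad-GFP 1, beside 55.7. They ranged from 2.58 to 86.4 and from 1.21 to 94.2 in βRicKO+Ad-GFP 1 and 2, and from 14.3 to 75.3 in Con+Ad-GFP 1. The single one in the library labelled Con+Ad-GFP 2 stood at 8.32, beside a median of 65.

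**Figure D4:**
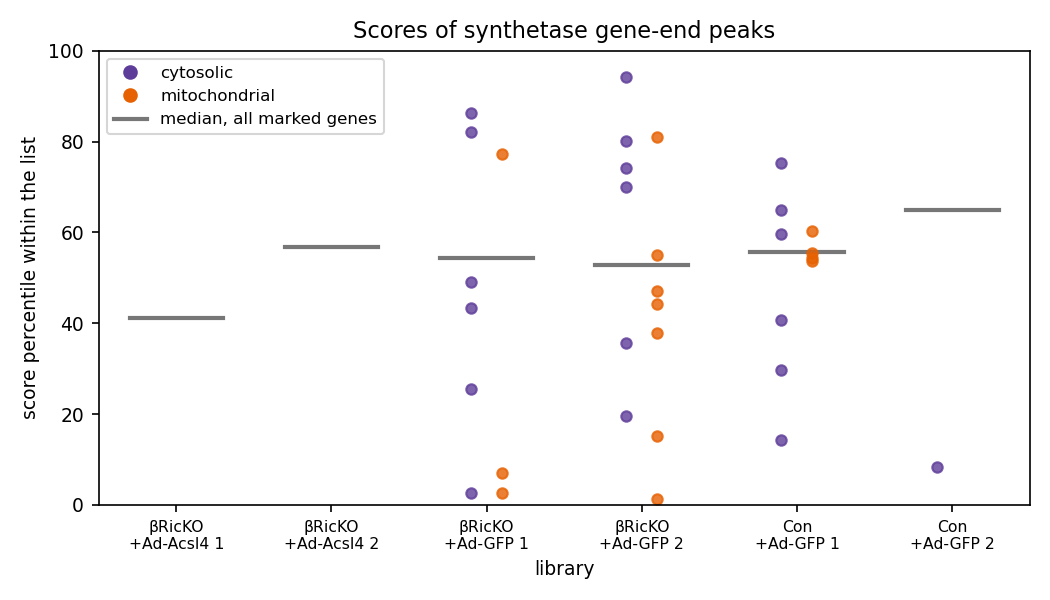
Score percentile within the list (y axis) of each synthetase gene-end peak by library (x axis), with cytosolic genes left and mitochondrial genes right of the centre, and a grey line for the median of all marked genes. Points spread from 1.21 to 94.2 around the grey lines, and the single peak of the library labelled Con+Ad-GFP 2 lies at 8.32.

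Many of these peaks lie between close neighbours and cannot be assigned to a synthetase gene alone. For 7 of the 20 marked genes a peak also fell within 1000 bp of an end of another protein-coding gene. They were 5 of 9 mitochondrial genes: Sars2 beside Mrps12, a protein of the mitochondrial ribosome, Ears2 beside Ubfd1, Fars2 beside Lyrm4, which takes part in iron-sulfur cluster assembly, Rars2 beside Orc3, a subunit of the origin recognition complex, and Vars2 beside Gtf2h4, a subunit of the transcription factor TFIIH. Among 11 cytosolic genes there were 2, Yars beside S100pbp and Qars beside Qrich1. Shared peaks were also common over all genes, at 36.7% and 33.7% of marked genes in the libraries labelled βRicKO+Ad-GFP 1 and 2 and 32.1% in that labelled Con+Ad-GFP 1. For synthetase genes they were 3 of 9 (33.3%) and 6 of 13 (46.2%) in βRicKO+Ad-GFP 1 and 2, and 3 of 10 (30%) in Con+Ad-GFP 1. Hars and Hars2, whose records overlap at 1 end, had no peak at their ends, and the nearest lay 1197 bp from an end of Hars2, in the library labelled βRicKO+Ad-GFP 2.

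Promoter sequences were available for 27 of the 37 genes, 14 cytosolic and 13 mitochondrial, and were searched on both strands for 7 short motifs, with the promoters of 17492 protein-coding genes beside them. CARE, searched as TGATGNAA, was found in 5 of 14 cytosolic promoters (Aars, Gars, Iars, Tars and Yars) and 0 of 13 mitochondrial promoters, and in 4.13% of all promoters. The E-box CACGTG was present in 4 cytosolic promoters and 1 mitochondrial promoter, beside 8.91% of all. A part of the NRF1 site, GCGCANGC, was found in 5 of each class, or 37% of the 27, beside 14.8%, and the ETS motif CCGGAAG in 5 cytosolic and 4 mitochondrial promoters, or 33.3%, beside 12.9%. The NF-Y motif CCAAT was found in 48.1% of the 27, beside 42.3%, the GC box GGGCGG in 70.4%, beside 49.2%, and the TATA box TATAAA in 11.1%, beside 14.8%. No matches of different motifs overlapped in these promoters. Median GC content was 57.7% in synthetase promoters and 56.3% in all promoters, with a median of 17 and 13 CpG pairs. A match is a stretch of letters and does not show binding, and no test was made of the differences between classes.

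**Figure D5:**
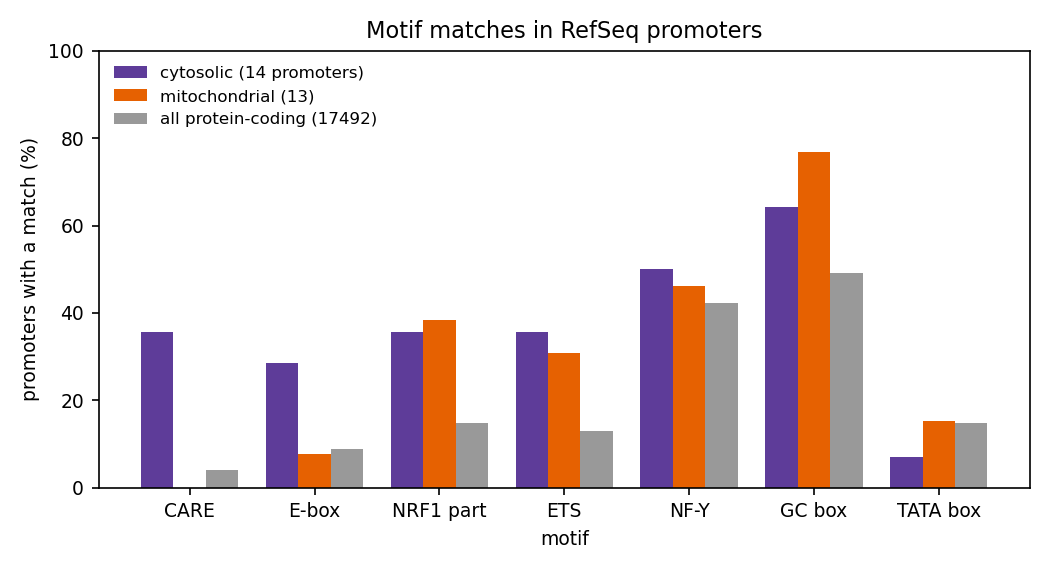
Share of RefSeq promoters with a match (y axis, percent) for each of 7 motifs (x axis), for 14 cytosolic synthetase, 13 mitochondrial synthetase and 17492 protein-coding promoters. The CARE bar is at 5 of 14 for cytosolic genes and at 0 of 13 for mitochondrial genes, beside 4.13% of all promoters.

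CARE matches are shown with their surroundings, because they were found in cytosolic promoters alone among these 27 and several lie under the peaks. Each line is 30 bases in the direction of transcription with the match in capitals, and positions count from the start site as 0. The Tars match lies at chr15:11399666-11399673, from -15 to -8, the Yars match at chr4:129189906-129189913, from 3 to 10, and the Iars match at chr13:49682137-49682144, from 7 to 14. For Aars a match at chr8:111033851-111033858, from 9 to 16, is shown. The Gars match lies at chr6:55037971-55037978, from -30 to -23.

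Tars: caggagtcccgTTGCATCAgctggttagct
Yars: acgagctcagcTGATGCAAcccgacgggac
Iars: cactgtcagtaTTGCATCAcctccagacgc
Aars: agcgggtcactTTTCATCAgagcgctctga
Gars: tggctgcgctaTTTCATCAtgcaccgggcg

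The Yars match reads forward and the others shown read in reverse. Peaks covered the Tars match in 2 of the 4 libraries that marked the gene, those labelled βRicKO+Ad-GFP 2 and Con+Ad-GFP 1. The Yars match was covered in the libraries labelled βRicKO+Ad-GFP 1 and 2 and not in that labelled Con+Ad-GFP 1, whose peak lay upstream. The Iars match was covered in the library labelled Con+Ad-GFP 1 and the Aars match shown in that labelled βRicKO+Ad-GFP 2. Gars, the glycyl enzyme, had no peak near its match in any library.

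Of 13 synthetase genes listed as ATF4-regulated, 4 and 3 were marked in the libraries labelled βRicKO+Ad-GFP 1 and 2 (30.8% and 23.1%), and 5 and 1 in those labelled Con+Ad-GFP 1 and 2 (38.5% and 7.69%). Over all libraries 7 of them (53.8%) were marked, beside 54.1% of all synthetase genes. Of the 8 synthetases of the multisynthetase complex, 1 and 3 were marked in βRicKO+Ad-GFP 1 and 2 (12.5% and 37.5%) and 2 and 0 in Con+Ad-GFP 1 and 2 (25% and 0%). The shares of all genes to set beside this and the other lists are 8.20% and 17.3% in βRicKO+Ad-GFP 1 and 2 and 16.7% and 2.00% in Con+Ad-GFP 1 and 2. The 3 scaffold genes were each marked at least once, with 2 marked in the libraries labelled βRicKO+Ad-GFP 2 and Con+Ad-GFP 1 each and Eef1e1 in both.

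Upstream of the synthetases, 25 genes of the integrated stress response and amino acid supply had 1 and 0 marked in the libraries labelled βRicKO+Ad-Acsl4 1 and 2, 4 and 11 in those labelled βRicKO+Ad-GFP 1 and 2, and 9 and 1 in those labelled Con+Ad-GFP 1 and 2. These are 4% and 0%, beside 1.02% and 1.58% of all genes, in βRicKO+Ad-Acsl4, 16% and 44%, beside 8.20% and 17.3%, in βRicKO+Ad-GFP, and 36% and 4%, beside 16.7% and 2.00%, in Con+Ad-GFP. Eif2ak3, the stress kinase PERK, was marked in the 4 GFP libraries, with percentiles of 86.6 and 95.9 in βRicKO+Ad-GFP and 94.4 and 82.7 in Con+Ad-GFP. Eif2ak4, the kinase GCN2 that senses uncharged tRNA, was marked in the libraries labelled βRicKO+Ad-Acsl4 1 (64.4), βRicKO+Ad-GFP 2 (56.8) and Con+Ad-GFP 1 (79.4). Ddit3, the stress transcription factor CHOP, had percentiles of 71.2 and 94.8 in the libraries labelled βRicKO+Ad-GFP 1 and 2 and 79.3 in that labelled Con+Ad-GFP 1. Slc3a2, the heavy chain of amino acid transporters, had 70.4, 48.1 and 27.4 in the same libraries. Atf4 itself was marked in the libraries labelled βRicKO+Ad-GFP 2 and Con+Ad-GFP 1, and Atf5, a related transcription factor, in both labelled βRicKO+Ad-GFP and neither labelled Con+Ad-GFP. The pattern of Atf5 was seen in 1.04% of all genes, and Atf5 was named after its values were seen.

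Downstream, 14 genes of tRNA delivery, editing and mitochondrial amidation had 0 and 1 marked in the libraries labelled βRicKO+Ad-GFP 1 and 2, 2 and 1 in those labelled Con+Ad-GFP 1 and 2, and 0 in both labelled βRicKO+Ad-Acsl4. These are 0% and 7.14% in βRicKO+Ad-GFP and 14.3% and 7.14% in Con+Ad-GFP, beside the shares of all genes given above. Of 21 tRNA processing genes, 0 and 1 were marked in βRicKO+Ad-Acsl4, 2 and 7 in βRicKO+Ad-GFP (9.52% and 33.3%) and 4 and 1 in Con+Ad-GFP (19% and 4.76%). Pop7, a protein of RNase P, was marked in the libraries labelled βRicKO+Ad-GFP 1 and 2 (percentiles 80.3 and 80.4) and in that labelled Con+Ad-GFP 2 (95.1), a list that held 1 marked synthetase gene. Xpot, the exporter of tRNA from the nucleus, had 31.3 and 81.5 in the libraries labelled βRicKO+Ad-GFP 1 and 2 and 27.1 in that labelled Con+Ad-GFP 1.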

How the data were processed

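ATAC-seq peak lists of 6 islet libraries were analysed. Per the submitters' processing notes, the tools were MACS2 2.1.1, BWA 0.7.10, SAMtools, Trimmomatic and FastQC, with no roles or settings given. The authors deposited for each library a headerless list of peaks with a value read here as −log10 q-value, inferred because the smallest value of each list lies between 1.3 and 1.32. The same notes name hg38 and GRCh38, but gene-end shares were 5.29% to 75.5%, against 3.69% to 7.49% after shifts of 100000 bp on mouse GRCm38, which was used, 1-based. The lowest share, in the library labelled βRicKO+Ad-Acsl4 2, was 5.29% against 3.69% after shifts, so that list adds little to this check.

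Genes came from the RefSeq table of GRCm38.p6 and promoters from RefSeq. Marking needed an overlap of 1 bp with a window of 1000 bp. No per-gene or list test was made. The members and gene lists were chosen with earlier results of these data known. Members are named by their counts of libraries, and other list genes when marked in 3 or more libraries. Atf4, Atf5, Eef1e1 and the marked beta cell markers were named after their values were seen. Promoters are printed for the genes marked in the most libraries among cytosolic and among mitochondrial genes, where a RefSeq promoter was available. Ties were broken by the mean score percentile of the peaks of a gene. Alternatives were windows of 500 and 3000 bp, 50% of the peak inside the window, the better 50% of each list, equal lengths of 525 peaks, the start end only and leaving out each library. Windows around RefSeq start sites were added later. 1 member gene and 1 motif match are not reported by name or sequence here. Marking was tested on simulated data. Python 3.11.15, NumPy 2.4.6, pandas 2.3.3 and SciPy 1.17.1 were used.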

Additional observations from a re-analysis of the deposited data

How the results depend on the processing

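No library labelled βRicKO+Ad-Acsl4 marked a synthetase gene under any alternative run. Only the window of 3000 bp and the RefSeq start sites could have changed this. The other runs used the same or fewer peaks and no wider windows. Of the values recomputed, 93 stayed within the spread between libraries (the mean difference), the counting interval (a share) or a factor of 1.5 (a count). Many of these 93 were a 0 that stayed 0, so the tally is not a measure of stability. A further 22 did not stay within these limits. The remaining 6 changed sign, all of them the mean difference between cytosolic and mitochondrial shares. That mean of 0.496 percentage points became -3.13 with a window of 3000 bp, -0.298 with 50% of the peak inside the window and -0.149 with the better 50% of each list, and ran from -1.37 to 3.63 with each library left out. It was 1.79 with a window of 500 bp, 1.34 at equal lengths, 1.19 at the start end and 0.916 at RefSeq start sites, all within its SD of 8.49. With the better 50% of each list, the share marked fell to 8.11% and 16.2% in the libraries labelled βRicKO+Ad-GFP 1 and 2 and was 18.9% and 0% in those labelled Con+Ad-GFP 1 and 2, so that Con+Ad-GFP 1 then stood above both βRicKO+Ad-GFP libraries. At equal list lengths it was 8.11% and 2.70% in βRicKO+Ad-GFP 1 and 2 and 0% in both labelled Con+Ad-GFP. These alternatives hold fewer peaks by construction. For other windows, cut lists and start sites, shares per library and counts marked only in 1 group were not computed over all genes. The order of the libraries there is thus not read as a result about synthetases. The βRicKO+Ad-GFP-only count against Con+Ad-GFP, 1 as reported, was 3 with a window of 3000 bp, 2 at RefSeq start sites and 0 in the better 50% and at equal lengths. With a library left out it ran from 1 to 6, and the Con+Ad-GFP-only count from 0 to 3. Against βRicKO+Ad-Acsl4, the βRicKO+Ad-GFP-only count of 5 became 2 in the better 50% and 0 at equal lengths, and 5 to 13 with a library left out. The Con+Ad-GFP-only count of 1 became 0 in both, and 1 to 10 with a library left out. No paired analysis was possible because the counts come from no test to which a block could be added, and nothing in the labels ties libraries of the same number to each other. Depth is unknown, and the short lists at gene ends limit what can be seen in 3 of the 6 libraries.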
